A study of Mus musculus with 6 samples.

Results

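Splicing factors and heterogeneous nuclear ribonucleoproteins (hnRNP proteins) were followed in a mouse acute myeloid leukaemia line after loss of an activated FLT3 receptor. The members were the rows of the count table whose symbols begin with Srsf, Hnrnp, Snrp, Sf3a, Sf3b or Prpf in the forms that name these proteins, without names marked as pseudogenes by -ps, which left out 4 rows. The rule found 66 of 53733 named rows: 11 SR protein genes, 20 hnRNP genes, 13 rows of Sm and U snRNP proteins, 9 genes of SF3a and SF3b subunits and 13 PRPF genes. It used names alone and no measured value, but the members were proposed with earlier results of these data known. Of the 66 rows, 64 passed the filter on low counts. Srsf12 had no count in any library and Snrpn had at most 0.66 CPM, the count scaled to library size, in OFF replicate 3. One tested row, Snrpert, is annotated as a processed pseudogene, and the other 63 are protein-coding genes.

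The spliceosome removes introns from pre-mRNA. Its small nuclear RNAs are bound by a ring of Sm proteins and by proteins particular to each particle, the SF3a and SF3b complexes anchor the U2 particle at the branch point, and PRPF proteins serve mainly in the U4/U6.U5 tri-snRNP and in the rearrangements around catalysis. SR proteins bind exons through RNA recognition motifs and recruit these particles, while hnRNP proteins coat the transcript and often act against them. In human myeloid malignancy, SF3B1, SRSF2 and U2AF1 are recurrently mutated.

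The cells came from mouse foetal liver transduced with MLL-AF9, a fusion oncogene carried with a luciferase on a constitutive retroviral vector, and with a second retrovirus in which a tetracycline-responsive promoter drives DsRED and FLT3-ITD. Both groups therefore carry both oncogenes, and both were injected through the tail vein into NSG mice, which lack mature lymphocytes, and engrafted for 96 h under doxycycline. In the OFF group (3 mice) doxycycline was then withdrawn for 48 h, and in the ON group (3 mice) it was continued. Living leukaemic cells were recovered from the marrow by sorting, and mRNA 3′ ends were sequenced in 1 library per mouse. All libraries derive from 1 line, the mice were not said to come from separate derivations of it, and no age is given in the labels.

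Libraries held 8335234 to 9316361 counts in named rows, so that a count of 3 equalled at most 0.372 CPM. OFF replicate 3 stood apart from OFF replicates 1 and 2 on a second principal component that held 13.6% of the variance. All 14 markers of the labelled myeloid line were detected, with a summed level of 4860 to 5070 CPM in OFF and 2950 to 3350 CPM in ON. Of these, 9 were called higher in OFF and 1 lower (adjusted p under 0.05). Over all tested rows 17.3% were called higher and 17.5% lower. The mouse Flt3 row, which reads the 3′ end of the cells' own gene and cannot check the transgene, had 5.44, 5.90 and 9.13 CPM in OFF and 5.48, 5.81 and 5.71 CPM in ON. Further marker lists also moved: 9 erythroid genes summed to 578 to 934 CPM in OFF and 150 to 212 CPM in ON. The 8 monocyte and macrophage genes summed to 867 to 1350 CPM in OFF and 551 to 628 CPM in ON. Csf1r is in that list and also in the list of the line. Granulocyte genes, 9 in number, summed to 16000 to 25100 CPM in OFF, highest in replicate 3, and to 19600 to 21100 CPM in ON. Although these sums overlapped, 6 of the 9 granulocyte genes were called higher in OFF and 0 lower. All 5 tested erythroid genes were called higher. Of 6 tested monocyte and macrophage genes, 5 were called higher and 1 lower. None of the genes in these 3 lists was at 0 in all libraries. Whether the line itself or other cells gave the counts of these 3 lists was not tested. Markers of B cells (8.22 to 12.1 CPM in OFF, 2.39 to 5.60 CPM in ON), T and NK cells, stroma and endothelium each summed to at most 12.1 CPM, with Cd8a, Lepr, Emcn and Tek at 0 throughout, and 5 megakaryocyte genes summed to 54.9 to 63.8 CPM in OFF and 32.3 to 37.0 CPM in ON. Their part in the results was not tested. In bulk libraries, fewer cells of a kind and less RNA per cell cannot be told apart.

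Promoters of the members were searched for the E-box CACGTG, the letters known to be bound by MYC. The Myc row itself fell after withdrawal (7.11, 7.02 and 8.25 CPM in OFF, 20.7, 20.2 and 26.05 CPM in ON, log2 fold change -1.58, adjusted p = 6.05e-06), and its part in the results was not tested. RefSeq windows on GRCm38.p6, from 250 bases before to 50 bases after a start site, were available for 57 members. The 6 letters, which read the same on both strands, occurred in 9 of the 57 (15.8%), against 12.2% of the 8726 tested genes with a window. They stood in 4 of 25 members called lower (16.0%) and in 5 of 30 tested members not called lower (16.7%). A match is a description of letters and not a bound site. The lower members with a match were Hnrnpd, Prpf3, Prpf39 and Snrpa. Shown are 3 of these, with the E-box in capitals, and the window of Hnrnpab, which fell most of the hnRNP genes and whose window does not hold these letters. The windows are chr7:27196222-27196521 (minus strand) for Snrpa, with matches that begin 73 and 32 bases before the start site, chr12:65036084-65036383 (plus strand) for Prpf39, chr5:99978889-99979188 (minus strand) for Hnrnpd and chr11:51606832-51607131 (minus strand) for Hnrnpab.
Snrpa: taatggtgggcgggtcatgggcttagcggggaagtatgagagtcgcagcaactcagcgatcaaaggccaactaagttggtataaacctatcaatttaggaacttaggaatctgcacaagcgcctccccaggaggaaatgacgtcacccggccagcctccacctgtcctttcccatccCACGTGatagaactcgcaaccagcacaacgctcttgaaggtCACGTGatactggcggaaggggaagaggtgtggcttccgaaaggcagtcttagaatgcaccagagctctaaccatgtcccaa
Prpf39: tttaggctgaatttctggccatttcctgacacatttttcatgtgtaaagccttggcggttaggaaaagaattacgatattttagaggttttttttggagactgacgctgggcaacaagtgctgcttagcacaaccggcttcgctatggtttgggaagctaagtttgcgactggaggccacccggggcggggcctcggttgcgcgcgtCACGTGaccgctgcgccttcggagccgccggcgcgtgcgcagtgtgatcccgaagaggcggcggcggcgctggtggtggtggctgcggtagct
Hnrnpd: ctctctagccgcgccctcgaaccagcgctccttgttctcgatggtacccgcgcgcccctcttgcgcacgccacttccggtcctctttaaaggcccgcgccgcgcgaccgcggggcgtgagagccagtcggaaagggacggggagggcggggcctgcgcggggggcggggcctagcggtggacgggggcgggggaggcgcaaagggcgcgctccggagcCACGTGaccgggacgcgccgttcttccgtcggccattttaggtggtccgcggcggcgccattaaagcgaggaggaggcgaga
Hnrnpab: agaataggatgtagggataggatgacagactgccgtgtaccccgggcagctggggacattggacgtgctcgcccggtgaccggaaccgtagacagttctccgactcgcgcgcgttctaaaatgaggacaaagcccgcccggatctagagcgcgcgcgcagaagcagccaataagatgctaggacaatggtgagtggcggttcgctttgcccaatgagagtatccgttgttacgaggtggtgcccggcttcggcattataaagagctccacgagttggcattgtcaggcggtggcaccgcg
RefSeq gives Snrpa a further start site and Prpf3 a pair of them, and those windows also hold the letters. The windows of Prpf3 overlap, and the match in them is the same one.

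After withdrawal of doxycycline, many splicing genes were modestly lower, and the median log2 fold change lay below 0 in all 5 families. Of 64 tested members, 29 (45.3%) passed an adjusted p of 0.05 as lower in OFF and 1 (1.56%) as higher, where 17.5% of all 13652 tested rows were called lower and 17.3% higher. The median log2 fold change was -0.30 over the members and 0.00 over all tested rows. No member fell 2-fold, a size reached with a call by 5.51% of all tested rows. Among the members called lower, the log2 fold change lay between -0.30 and -0.40 in 16, between -0.40 and -0.60 in 8 and beyond -0.60 in 4. All 3 OFF values lay below all 3 ON values in 43 members (67.2%, against 24.5% of all tested rows) and above them in 3 (4.69%, against 23.8%). Together the 66 rows summed to 9570, 9028 and 9088 CPM in OFF and to 11010, 10920 and 11150 CPM in ON, so that every OFF library lay below every ON library.

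The number of calls depended on which libraries were kept, while the median stayed below 0. Leaving out OFF replicate 2 gave 10 members lower (15.6%, with 12.4% of all tested rows), and leaving out ON replicate 1, 2 or 3 gave 12, 12 and 10 (18.8%, 18.8% and 15.6%, with 12.8%, 12.0% and 12.2% of all tested rows). Without OFF replicate 1, and without OFF replicate 3, 35 members were lower (54.7% in each fit, with 19.6% and 19.3% of all tested rows). The median log2 fold change lay between -0.33 and -0.25 in these 6 fits. Of the 30 called members, 8 passed under every one of the 16 alternative settings: Srsf1, Hnrnpab, Hnrnpa0, Hnrnpdl, Snrpa1, Snrpd3, Sf3b3 and Prpf31.

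**Figure D1:**
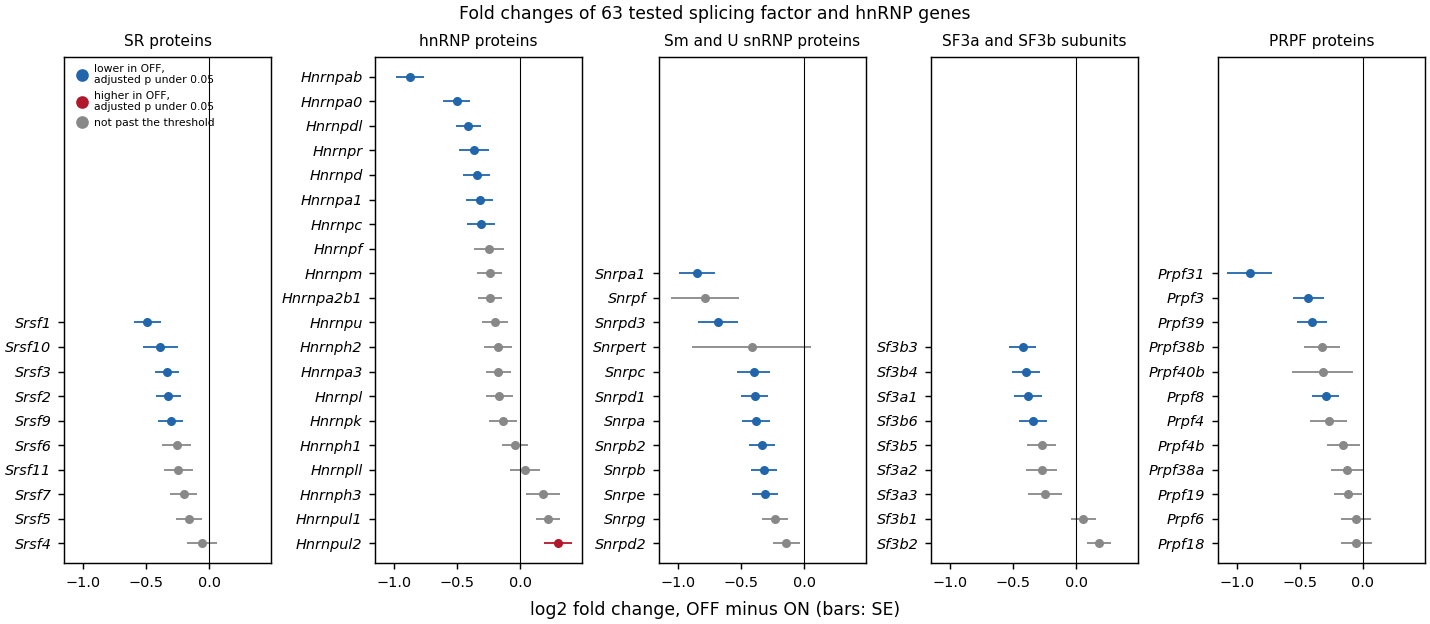
Log2 fold change (OFF minus ON, x axis) with its SE for 63 of the 64 tested members, in 1 panel per family. Of the points, 57 lie left of 0 and 6 right of it, and the 28 blue and 1 red points passed an adjusted p of 0.05 as lower and higher in OFF.

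**Figure D2:**
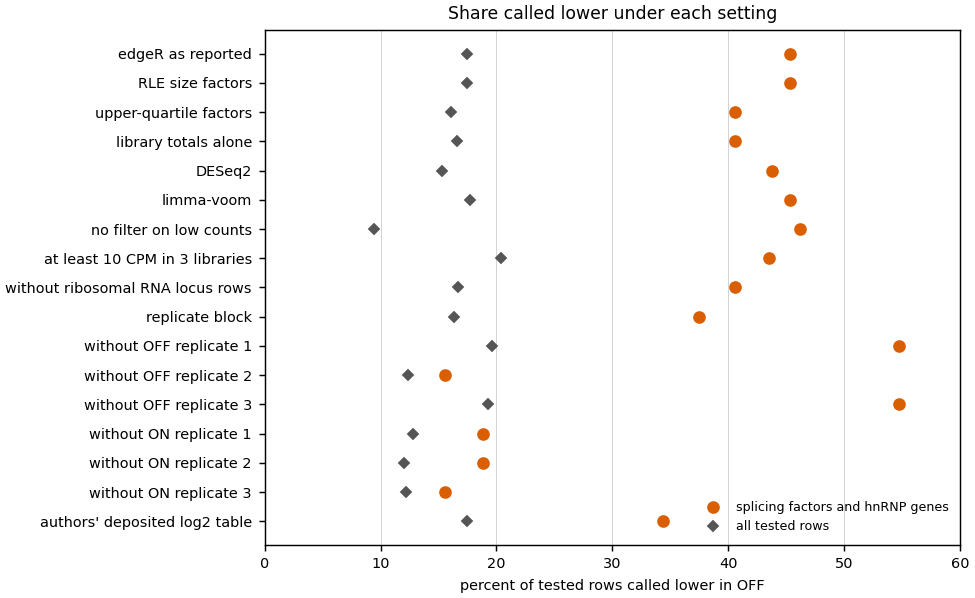
Percent of tested rows called lower in OFF (x axis) under the reported fit and 16 alternatives (y axis), for the members (circles) and for all tested rows (diamonds). The circles sit between 34.4% and 54.7% except in the 4 fits without OFF replicate 2 or an ON library, where they lie at 15.6% to 18.8%, near the diamonds.

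SR proteins, which recognise exonic enhancers and carry arginine-serine repeats, were lower in 5 of 10 tested members and higher in none, at a median log2 fold change of -0.28. Without OFF replicate 2 or any ON library 1 of 10 was lower, where 12.0% to 12.8% of all tested rows were, and without OFF replicate 1 or 3 it was 6. The family summed to 1416, 1356 and 1337 CPM in OFF and to 1675, 1660 and 1727 CPM in ON.

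Srsf1, a founding SR protein with a known oncogenic role (chromosome 11, 88047373 to 88053755, plus strand), had 124, 127 and 123 CPM in OFF and 160, 174 and 193 CPM in ON. The OFF libraries lay close together and well below the ON libraries (log2 fold change -0.49, SE 0.11, adjusted p = 0.00237). Srsf3, a small SR protein that also couples splicing to mRNA export, had 264, 242 and 250 CPM in OFF and 314, 315 and 325 CPM in ON. Its groups did not overlap either (-0.34, SE 0.10, adjusted p = 0.0139). Srsf3 shares 3′-end sequence with 4 other annotated genes. Srsf2, the SR protein mutated in human myeloid disease, had 297, 264 and 263 CPM in OFF and 347, 331 and 353 CPM in ON (-0.32, SE 0.10, adjusted p = 0.0204). Its exons overlap 460 bases of Mettl23 on the opposite strand near its 3′ end, and the Mettl23 row stood at 0.871 to 0.923 of the Srsf2 row in every library, so the reads of these genes cannot be told apart. Srsf9 had 77.7, 74.3 and 82.9 CPM in OFF and 96.5, 97.3 and 96.9 CPM in ON, again without overlap (-0.31, SE 0.10, adjusted p = 0.0304). The calls of Srsf2, Srsf3 and Srsf9 were lost on leaving out OFF replicate 2 or any ON library, and that of Srsf9 also with library totals alone, with the replicate block and on the authors' deposited log2 table, with an adjusted p of up to 0.0910, 0.0691 and 0.106.

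The remaining call was Srsf10, which represses splicing when dephosphorylated, with 96.8, 92.1 and 64.02 CPM in OFF and 110, 110 and 111 CPM in ON (-0.39, adjusted p = 0.0394). OFF replicate 3 was the lowest by far: the log2 fold change ranged from -0.50 to -0.22 over the alternatives, and the call was lost in 9 of 16, among them the fit without that library. The 5 members that did not pass had log2 fold changes from -0.26 (Srsf6) to -0.06 (Srsf4). Srsf5, Srsf7 and Srsf11 lay between them, at -0.16, -0.20 and -0.25. The Srsf4 row may hold reads of Gm12992 on the opposite strand, whose row stood at 0.992 to 1.08 of it.

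Among hnRNP proteins, which package nascent transcripts, 7 of 20 members fell and 1 rose, with a median log2 fold change of -0.22. Over all tested rows 17.5% fell and 17.3% rose. With 1 library left out at a time, 3 to 10 fell. The count was 3 without ON replicate 2 or 3, near the 12.0% and 12.2% of all tested rows. The family summed to 4984, 4759 and 4922 CPM in OFF and to 5754, 5742 and 5826 CPM in ON. The change was uneven between subfamilies: 3 of 5 A/B members and both D members (Hnrnpd, Hnrnpdl) fell, while none of the 4 F/H members (Hnrnpf, Hnrnph1, Hnrnph2, Hnrnph3) or of the 2 L members passed. The differences between subfamilies were not tested.

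Hnrnpab (chromosome 11, 51600100 to 51606847, minus strand), an A/B protein that binds RNA and DNA, had 169, 153 and 133 CPM in OFF and 264, 288 and 282 CPM in ON. Every OFF library was at or below 61% of the ON mean, and the log2 fold change was -0.87 (SE 0.11, adjusted p = 3.69e-05). Of its exonic bases, 809 are shared with Phykpl on the opposite strand, 499 of them within 1000 bases of its 3′ end. The Phykpl row had 135, 121 and 116 CPM in OFF and 217, 243 and 232 CPM in ON, or 0.791 to 0.870 of the Hnrnpab row in each library, and fell alike (-0.90), so the source of these reads cannot be told apart. Hnrnpa0, known for binding AU-rich mRNAs, has no overlapping gene and had 279, 224 and 241 CPM in OFF and 342, 354 and 357 CPM in ON (-0.50, SE 0.11, adjusted p = 0.00203). Hnrnpdl, a paralogue of Hnrnpd, had 154, 144.6 and 141 CPM in OFF and 193, 196 and 195 CPM in ON (-0.41, SE 0.10, adjusted p = 0.00514). In both genes the ON libraries were tightly grouped above the OFF libraries. Hnrnpd, also called AUF1, which directs the decay of AU-rich mRNAs, had 190, 187 and 159 CPM in OFF and 215, 228 and 237 CPM in ON (-0.34, SE 0.11, adjusted p = 0.0224). Its call was lost without ON replicate 2 or 3 and in a limma fit on the authors' deposited log2 table (adjusted p up to 0.104).

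The member called higher was Hnrnpul2, a relative of Hnrnpu with a role in the response to DNA breaks. It had 90.7, 94.0 and 79.3 CPM in OFF and 75.4, 64.6 and 74.1 CPM in ON. The groups did not overlap, but OFF replicate 3 came near to ON replicate 1, and the call (0.30, SE 0.11, adjusted p = 0.0495) was lost in 10 of 16 alternatives, among them DESeq2. Its paralogue Hnrnpul1 had 232, 235 and 240 CPM in OFF and 193, 213 and 200 CPM in ON without passing (0.22, adjusted p = 0.0947), and Hnrnpu, a scaffold of nuclear chromatin, gave -0.20 (adjusted p = 0.145). Further calls were Hnrnpr (-0.37), Hnrnpa1 (-0.32) and Hnrnpc (-0.31), each lost in 4 to 10 alternatives, and Hnrnpa1 shares 3′-end sequence with 5 other annotated genes. Hnrnpa2b1 and Hnrnpm missed the threshold at -0.24 each (adjusted p = 0.0614 and 0.0766). Hnrnpa3, Hnrnph2 and Hnrnpl gave -0.17, -0.18 and -0.16. Hnrnpf, at 378, 437 and 527 CPM in OFF and 497, 553 and 546 CPM in ON, overlapped between groups because OFF replicate 3 lay within the ON range (-0.25, adjusted p = 0.119, and 0.00203 without that library). Hnrnpk, with 587, 513 and 681 CPM in OFF and 642, 676 and 640 CPM in ON, showed the same high OFF replicate 3 (-0.14, adjusted p = 0.362). Hnrnph1, Hnrnpll and Hnrnph3 gave -0.04, 0.04 and 0.18 without passing.

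**Figure D3:**
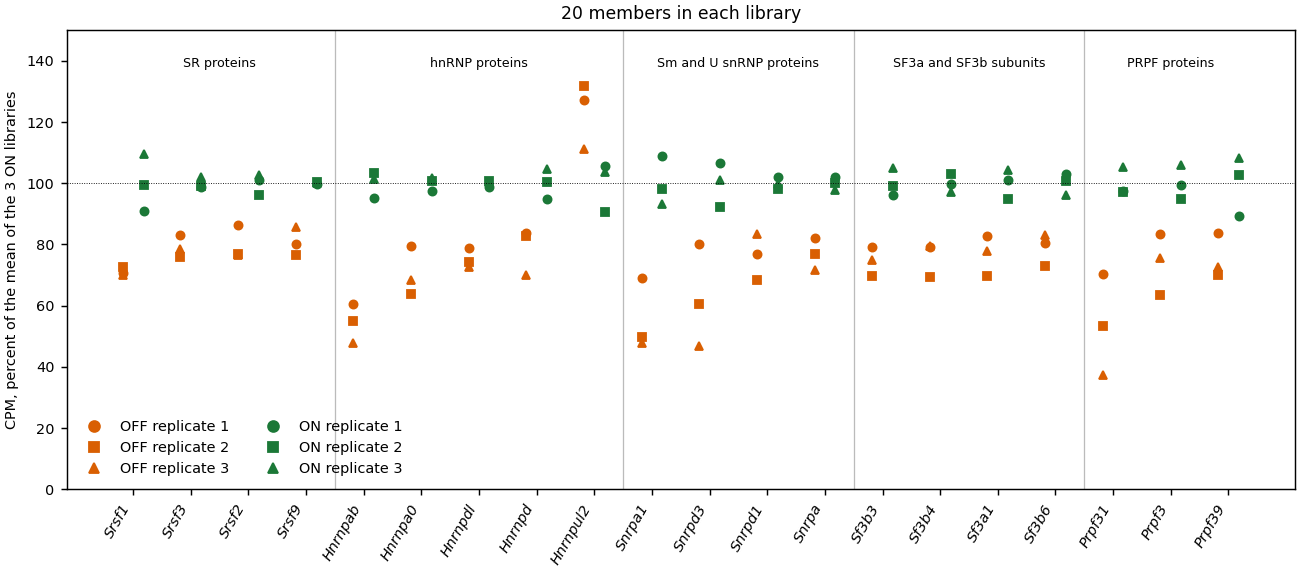
Level of 20 members in each library as a percent of the mean of the 3 ON libraries (y axis), for 3 or 4 members per family, chosen by smallest p, and for Hnrnpul2, with OFF left of ON. In all but Hnrnpul2 the 3 OFF points lie below the 3 ON points, and Hnrnpab, Snrpa1, Snrpd3 and Prpf31 reach the lowest percentages.

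Sm and U snRNP proteins fell in 8 of 12 tested rows and rose in none, with a median log2 fold change of -0.39. Leaving out each library in turn gave 2 to 9. The count was 2 without ON replicate 1, near the 12.8% of all tested rows. The family summed to 1253, 1103 and 1149 CPM in OFF and to 1558, 1508 and 1544 CPM in ON. All 4 proteins particular to the U1 or U2 particle fell, as did 4 of the 7 proteins of the Sm ring.

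Snrpa1, the U2 protein A′ (chromosome 7, 66059003 to 66074587, plus strand), had 37.3, 26.8 and 25.9 CPM in OFF and 58.8, 53.0 and 50.4 CPM in ON. OFF replicate 1 was the highest OFF library and still stood well below the ON libraries (log2 fold change -0.85, SE 0.14, adjusted p = 0.000357). The end of an annotated Snrpa1 transcript shares a 50-base stretch with 31 other genes. Snrpa, the U1 protein A whose promoter is printed above, had 29.8, 27.8 and 26.0 CPM in OFF and 37.0, 36.3 and 35.5 CPM in ON (-0.38, SE 0.11, adjusted p = 0.0177). The other U1 and U2 proteins followed, with Snrpc, which helps U1 recognise the 5′ splice site, at -0.40 and Snrpb2, the U2 protein B″, at -0.33. Transcript ends of Snrpa, Snrpc and Snrpb2 share such a stretch with 6, 3 and 1 other genes. The calls of Snrpa and Snrpc were lost on leaving out OFF replicate 2 or any ON library, and that of Snrpb2 without OFF replicate 2, ON replicate 1 or ON replicate 3.

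In the Sm ring, Snrpd3 had 190, 143 and 111 CPM in OFF and 253, 219 and 240 CPM in ON. OFF values spread widely and all lay under the lowest ON value (-0.68, SE 0.16, adjusted p = 0.00508). Snrpd1, which enters the ring paired with Snrpd2, had 172, 154 and 187 CPM in OFF and 229, 220 and 224 CPM in ON (-0.39, SE 0.11, adjusted p = 0.0099). That call did not hold without OFF replicate 2 or ON replicate 1. Snrpb (-0.32) and Snrpe (-0.31) also fell, with calls lost in 5 and 7 alternatives. Snrpf had 22.1, 44.7 and 47.9 CPM in OFF and 53.9, 65.4 and 78.9 CPM in ON without passing (-0.79, SE 0.27, adjusted p = 0.052). The low value was in OFF replicate 1, and the call was made in 6 of 16 alternatives, among them the fit without that library. Its row cannot be told apart from that of Ccdc38 on the opposite strand, which stood at 0.849 to 0.986 of it in every library. Snrpg (-0.23) and Snrpd2 (-0.14) did not pass, and the pseudogene Snrpert, at 0.44, 3.23 and 2.53 CPM in OFF and 2.74, 3.417 and 2.11 CPM in ON, shares its sequence with Snrpe.

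Of the 9 SF3a and SF3b subunits, 4 fell and none rose, at a median log2 fold change of -0.27. Leaving out each library in turn gave 1 to 5 lower. The count was 1 without OFF replicate 2, near the 12.4% of all tested rows. Their summed level hardly differed, at 1006, 968.5 and 964 CPM in OFF and 1001, 1004 and 1005 CPM in ON. Most of that sum came from Sf3b1 and Sf3b2, and the subunits did not all move together. The 3 SF3a subunits summed to 111.5, 88.3 and 101 CPM in OFF and to 123, 124 and 124 CPM in ON. Sf3b3, a scaffold of the SF3b complex, had 71.7, 63.0 and 67.9 CPM in OFF and 87.0, 89.8 and 95.1 CPM in ON (-0.42, SE 0.11, adjusted p = 0.00623). Sf3b4, which binds upstream of the branch point, had 50.8, 44.6 and 50.9 CPM in OFF and 63.95, 66.2 and 62.4 CPM in ON (-0.40, SE 0.11, adjusted p = 0.0103). Both were separated between groups, with OFF replicate 2 the lowest library in each. Sf3a1, the SF3a subunit that contacts U1, had 39.2, 33.0 and 36.9 CPM in OFF and 47.7, 44.9 and 49.4 CPM in ON (-0.38, SE 0.11, adjusted p = 0.0174). Sf3b6, which lies close to the branch point adenosine, had 40.5, 36.8 and 41.8 CPM in OFF and 52.0, 50.8 and 48.4 CPM in ON (-0.34, SE 0.11, adjusted p = 0.024). Calls other than that of Sf3b3 were lost on leaving out 2 to 4 single libraries.

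By contrast, Sf3b1, the subunit that grips the branch helix and is the one recurrently mutated in human disease, had 272, 273 and 250 CPM in OFF and 248, 266 and 248 CPM in ON, with overlap between groups (0.06, SE 0.10, adjusted p = 0.680). Sf3b2, its partner within SF3b, had 411, 419 and 399 CPM in OFF and 370, 345 and 370 CPM in ON. All its OFF values were above the ON values without the fit passing (0.18, SE 0.09, adjusted p = 0.153), though it passed in a limma fit on the authors' deposited log2 table (adjusted p = 0.0482). Sf3b5, Sf3a2 and Sf3a3 gave -0.27, -0.27 and -0.25 without passing. The difference between subunits was seen in these values and was not tested.

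Of the 13 PRPF proteins, 5 fell and none rose, at a median log2 fold change of -0.30, and 1 to 6 fell with 1 library left out at a time. The count was 1 without OFF replicate 2 or ON replicate 3, below the 12.4% and 12.2% of all tested rows. The family summed to 911, 842 and 716 CPM in OFF and to 1026, 1001 and 1052 CPM in ON. Prpf31, which bridges the U4/U6 and U5 particles and is mutated in human retinitis pigmentosa (chromosome 7, 3629985 to 3642486, plus strand), had 26.1, 19.83 and 13.9 CPM in OFF and 36.2, 36.1 and 39.1 CPM in ON. The OFF values were widely spread, and all lay below the ON values (-0.90, SE 0.18, adjusted p = 0.00181). Prpf3, another U4/U6 protein, had 57.9, 44.1 and 52.4 CPM in OFF and 68.9, 65.7 and 73.6 CPM in ON (-0.43, SE 0.12, adjusted p = 0.0116). Its call was lost without OFF replicate 2 or ON replicate 3 (adjusted p up to 0.0680).

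Prpf39, known as a U1 factor in yeast, had 57.9, 48.2 and 50.2 CPM in OFF and 61.6, 70.8 and 74.5 CPM in ON (-0.40, SE 0.12, adjusted p = 0.015). OFF replicate 1 and ON replicate 1 lay close together, and its exons overlap 599 bases of Fkbp3 on the opposite strand, whose row also fell (-0.63) and stood at 0.884 to 1.28 of it. The call of Prpf39 was lost without OFF replicate 2, ON replicate 2 or ON replicate 3. Prpf8, the U5 protein that holds the catalytic core, had 79.1, 76.6 and 91.9 CPM in OFF and 98.4, 99.2 and 106 CPM in ON, at the edge of the threshold (-0.30, adjusted p = 0.0483) and lost in 13 of 16 alternatives. Prpf38b and Prpf4 gave -0.33 and -0.27 without passing (adjusted p = 0.0892 and 0.170), and Prpf40b, at 3.89 to 5.39 CPM in OFF and 4.47 to 6.83 CPM in ON, gave -0.32. The kinase Prpf4b (-0.15), Prpf38a (-0.12), the ubiquitin ligase Prpf19 (-0.12), Prpf6 (-0.05) and the second-step factor Prpf18 (-0.05) did not pass.

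Over all 64 tested members, the median level was 85.5% of the ON mean in OFF replicate 1, 79.4% in replicate 2 and 83.0% in replicate 3. Over the 29 members called lower, which were selected by these values, it was 82.5% in OFF replicate 1, 72.9% in replicate 2 and 73.5% in replicate 3. These are values of single libraries, and their differences were not tested. The lowest OFF library was replicate 2 for 14 of these members and replicate 3 for 15, and never replicate 1.

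Splicing genes outside the rule were described from a list of 142 genes in 7 roles, of which 141 were tested. Of these, 48 (34.0%) fell and 8 (5.67%) rose, where 17.5% of all tested rows fell and 17.3% rose. The median log2 fold change was -0.19. Leaving out each library in turn gave 32 to 53 lower and 3 to 14 higher, with 12.0% to 19.6% of all tested rows lower. The factors that assemble and recycle snRNPs had the lowest median of the 7 roles, -0.70, with 11 of 16 lower and none higher, and 10 or 11 lower without each library. Among them, the arginine methyltransferase Prmt5, which modifies Sm proteins, averaged 31.0 ± 6.04 CPM in OFF and 65.0 ± 4.59 CPM in ON (SD, n = 3 each; log2 fold change -1.07), and the SMN complex component Strap averaged 44.2 ± 2.15 CPM in OFF and 78.2 ± 4.49 CPM in ON (SD, n = 3 each; -0.82). The 10 LSm proteins were listed by family name, and not all of them act in splicing. Of these 10, 5 fell, with Lsm7 at -0.64 and Lsm5 at -0.48. Of 19 further U snRNP proteins 5 fell (3 to 8 with 1 library left out), including the U5 protein Txnl4a at -0.94 and the U4 protein Snu13 at -0.90. The count was 3 without ON replicate 1 or 3, near the 12.8% and 12.2% of all tested rows.

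In splice site recognition, 6 of 14 fell (4 to 7 with 1 library left out, and 0 or 1 higher), such as Smndc1 at -0.64 and Rbm17 at -0.60, and Zrsr1 rose by 0.66. Of 25 genes of the Prp19 complex and catalytic steps, 7 fell, such as Isy1 at -0.72 and Cwc27 at -0.60, and Cdc40 rose by 0.36. Without OFF replicate 2 or ON replicate 3, 2 fell, below the 12.4% and 12.2% of all tested rows. The other fits with 1 library left out gave up to 8 lower. Over all these fits 0 to 2 were higher. Of 6 kinases of SR proteins in the list, 4 (Clk1 to Clk4) did not pass. Srpk1 averaged 56.7 ± 7.81 CPM in OFF and 86.2 ± 6.51 CPM in ON (SD, n = 3 each; -0.61), and Srpk2 averaged 103 ± 9.86 CPM in OFF and 65.1 ± 1.12 CPM in ON (SD, n = 3 each; 0.66). Srpk2 shares 972 exonic bases near its 3′ end with Kmt2e on the opposite strand, and whether its row holds reads of that gene was not tested. In that role 6 of 20 genes fell and 1 rose. The count that fell was 3 without any 1 ON library, near the 12.0% to 12.8% of all tested rows, and 4 to 8 without an OFF library. Among the genes that fell was the SR protein importer Tnpo3 at -0.52. It shares 371 bases near its 3′ end with Irf5 on the opposite strand. Of 37 hnRNP-like and other regulators, 8 fell and 5 rose (5 to 11 and 2 to 10 with 1 library left out), near the shares of all tested rows, with Syncrip at -0.80 and Elavl1 at -0.58 against Tia1 at 0.63 and Celf2 at 0.38.

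Other families that handle RNA in the nucleus also fell in larger shares than the 17.5% of all tested rows. Of 49 tested DEAD and DEAH box helicases 25 (51.0%) fell and 2 rose, with a median log2 fold change of -0.32. With 1 library left out, 18 to 26 helicases fell and 2 to 4 rose. Some of these helicases are also among the other splicing genes above, so these lists are not separate. Nucleoporins fell in 15 of 20 (4 to 15 without each library in turn) with a median of -0.41. The count was 4 without OFF replicate 2 or ON replicate 2, where 12.4% and 12.0% of all tested rows fell. RNA polymerase subunits fell in 13 of 28 (46.4%) and rose in 1, with a median of -0.36. Leaving out each library in turn gave 10 to 16 of these subunits lower and 0 to 1 higher. Differences between these families and the splicing genes were not tested.

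**Figure D4:**
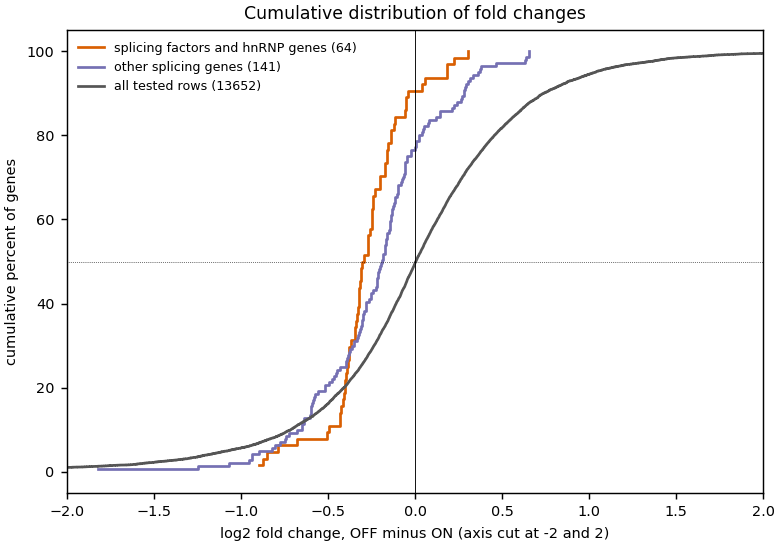
Cumulative percent of genes (y axis) by log2 fold change, OFF minus ON (x axis), for the 64 tested members, 141 other splicing genes and all 13652 tested rows. The curve of the members crosses 50% at -0.30, that of the other splicing genes at -0.19 and that of all rows near 0, and the members' curve is the steepest, with 58 of 64 values below 0.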

How the data were processed

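Counts per named row and log2 values were deposited for 6 libraries, 3 OFF and 3 ON, grouped by sample title. Per the labels' protocols, the QuantSeq 3′ kit was applied to DNase-treated RNA of sorted cells. Tools named in the submitters' processing notes are HISAT2 2.0.4, featureCounts (Subread 1.6.3), cutadapt 1.9.1, limma 3.42.2 in R 3.6.1, FastQC 0.11.6 and bcl2fastq 2.17.1.14, with build mm10. The annotation, the strand setting and the handling of overlapping genes were not given in the sources used here. In the deposited raw count table there were 54838 rows, 1105 of them without a name (0.145% to 0.172% of counts), which were left out. The authors' deposited log2 table of 12287 genes was used only as an alternative.

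Counts were tested in R 4.3.3 with edgeR 4.0.16 (filterByExpr with a minimum count of 10, TMM, robust glmQLFit and glmQLFTest, no covariate), and p-values were adjusted over 13652 rows by the Benjamini-Hochberg method at 0.05. Fold changes are log2 of OFF over ON, with SE = |log2 fold change| / √F. CPM use TMM-scaled libraries, and limits on counts cover counting error only. With 3 against 3 libraries a permutation cannot give p below 0.1. The script was tested on simulated data. Same-numbered libraries did not deviate together, so numbers were not taken as pairs. Alternatives were RLE, upper-quartile and no scaling factors, DESeq2 1.42.0, limma-voom (limma 3.58.1), other filters, removal of ribosomal RNA locus rows, the deposited log2 table, a replicate block and leaving out each library. Overlaps and shared 3′-end stretches (50 bases within the last 300 of a transcript) came from GENCODE M21 on GRCm38. The members and lists were chosen with earlier results of these data known, so lists are described and not tested. Members shown in every library are the 4 with the smallest p in each of 5 families and those called higher, and other genes named per role are the 2 with the smallest p in each direction. A result that this rule would name is not reported here, though the counts include it. Further members were named after their values were seen.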

Additional observations from a re-analysis of the deposited data

How the results depend on the processing

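No list median and none of the 30 called members changed sign in the 16 alternatives; 5 members that were not called did (Hnrnph1, Hnrnpll, Prpf6, Snrpert and Srsf4). On leaving out each library in turn, members lower in OFF numbered 10 to 35 and members higher 0 to 1, with a median log2 fold change of -0.33 to -0.25. In the families these fits gave 1 to 6 lower SR proteins (median -0.31 to -0.27), 3 to 10 lower hnRNP proteins with 0 to 1 higher, 2 to 9 lower Sm and U snRNP proteins, 1 to 5 lower SF3a and SF3b subunits and 1 to 6 lower PRPF proteins (median -0.32 to -0.21), while 3 to 14 of the other splicing genes were higher. In these fits 12.0% to 19.6% of all tested rows were lower. The calls depend on fewer samples there, since 5 libraries remain. No member, Hnrnpul2 included, was called higher with RLE factors, DESeq2, limma-voom, no filter on low counts or the replicate block (0 in each, also among hnRNP proteins), or with a minimum size of change, which was added after seeing the data (0, with 23 lower). A limma fit on the authors' deposited log2 table gave 3 members higher (2 hnRNP proteins and 1 SF3 subunit), 3 SR and 4 hnRNP proteins lower, and medians of -0.26 for all members, -0.24 for SR and -0.15 for hnRNP proteins. With at least 10 CPM in 3 libraries the medians were -0.26 for all members and -0.26 for SR proteins, and 14 other splicing genes were higher. The SR median was -0.25 with upper-quartile factors, which gave 13 other splicing genes higher, -0.30 with no filter and -0.26 without ribosomal RNA locus rows. A subset chosen after seeing the data held the 34 tested members with neither a shared 3′-end stretch nor an opposite-strand exon near it. Of these 34, 12 were lower and 1 was higher. Fewer genes were counted, but the share that fell was also smaller than the 29 of 64 (45.3%) among all tested members. It stayed above the 17.5% of all tested rows. Median log2 fold changes were -0.26 in the subset and -0.30 among all tested members, and the difference was not tested.

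The replicate block gave 24 members lower, 23 of them among the 29. Deviations of same-numbered libraries correlated at 0.03, -0.08 and -0.05, and only replicate 1 correlated best with its own number. Srsf12 and Snrpn hold 0 and 8 counts over all libraries and did not pass the filter on low counts. Whether depth or absent expression accounts for this was not tested.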
